A study of Mus musculus with 2 samples.

Results

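Stretches of the mouse genome in which no Zfp217 binding was called are described here. They were found by dividing chromosomes 1 to 19 of the build mm9 into fixed bins of 1 Mb, from 3000000 bp to the bin of each chromosome's last peak end, and keeping the bins that no peak overlapped. These were 289 of 2422 bins, or 11.9% (exact 95% Clopper-Pearson interval 10.7 to 13.3). Adjacent empty bins were joined, which gave 220 deserts. The data come from CCE, an embryonic stem cell line that received no treatment. It grew on gelatin, free of feeder cells, in medium with serum and leukemia inhibitory factor (LIF). Chromatin fixed for 10 min in 1% formaldehyde gave 1 library precipitated with a Zfp217 antibody and 1 input library. The labels name no genetic change in the cells. The authors deposited 1 list of 18737 peaks with positions and no score, of which 18041 lie on chromosomes 1 to 19.

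Zfp217 is a DNA-binding protein of the zinc finger class, found with the CoREST and CtBP corepressors, which carry enzymes that remove active marks from histones. In embryonic stem cells it is known for a part in self-renewal, and the human gene, ZNF217, is amplified in several cancers. Mammalian chromosomes alternate between gene-rich stretches and long stretches with few genes, often called gene deserts, and large arrays of sensory receptor genes that are silent outside sensory neurons also form long blocks. A peak list of a chromatin protein gives the called sites only. Read depth is unknown, so a bin without a peak holds no called peak and is not shown to be unbound. Bins without sequence in the assembly, or with sequence to which short reads cannot be assigned, also hold no peak, and their part in the deserts was not tested. With 1 precipitated library no value has a spread between replicates. The deserts were chosen by the positions of the peaks, so their number, length and surroundings are given as a description with no test.

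Empty bins lay at the low end of an uneven but continuous spread. The median bin held 4 peaks, the mean was 7.45 and the fullest bin held 93. Bins with exactly 1 peak, just outside the limit, numbered 300, and bins with 2, 3, 4 and 5 peaks numbered 250, 198, 189 and 153. The number of bins fell at each step from 1 to 6 peaks (124 bins), and the 289 empty bins were slightly fewer than those with 1 peak. They thus formed no separate group in this count. At the other end, 356 bins (14.7%) held 50% of the peaks, with a peak across a bin edge counted in both bins.

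**Figure D1:**
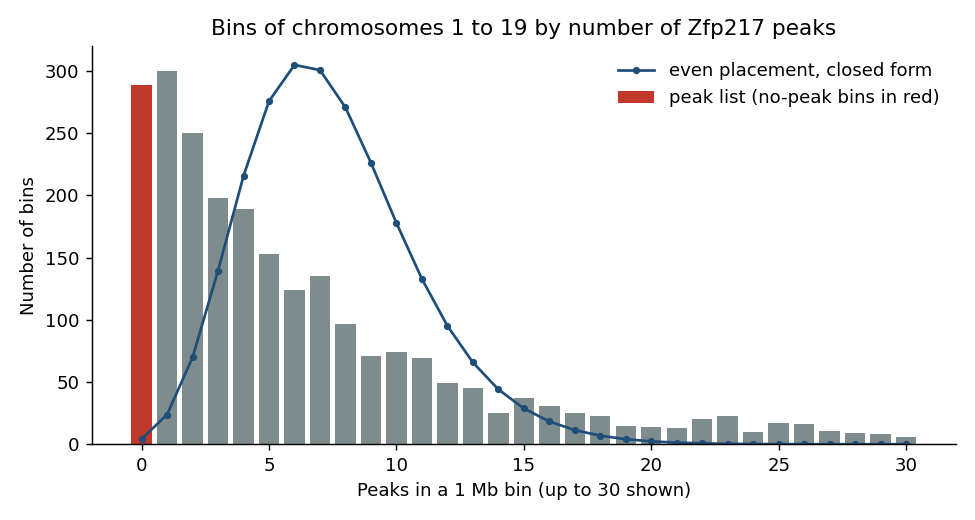
Number of 1 Mb bins of chromosomes 1 to 19 (vertical axis) that held each number of peaks (horizontal axis, up to 30), with bins without a peak in red and the closed-form expectation for even placement as a line. The list has 289 bins at 0 and 300 at 1, where even placement expects 4.17 and 23.9.

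Set against random placement of the same peaks, empty bins were many. If each peak of a chromosome fell in any of that chromosome's bins with equal chance, 4.17 empty bins would be expected over the 19 chromosomes, so the list held 69.2 times as many. Expected numbers ran from 0.000379 on chromosome 11 to 1.49 on chromosome 1. This expectation is computed from a formula, takes peaks as independent and treats all bins as sequenced. It is therefore a yardstick for unevenness and no test. The ratio depends strongly on the bin size and on the peaks that are kept, and was 8.23 with bins of 500 kb, 3994 with bins of 2 Mb, 2.62 with the wider 25% of peaks and 31.0 with peaks within 1000 bp merged.

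Every one of the 19 chromosomes held deserts. The highest share of empty bins was on chromosome 1, with 36 of 195 (18.5%, 95% interval 13.3 to 24.6). The lowest was on chromosome 11, with 8 of 119 (6.72%, 2.95 to 12.8), and chromosome 19 was close to it with 4 of 59 (6.78%, 1.88 to 16.5). Apart from chromosomes 1 and 11, the intervals of all pairs among the 19 overlapped. The intervals take bins as independent, which touching empty bins are not, so they are too narrow, and no difference between chromosomes was tested. Chromosome X, which is outside the rule, held 35 empty bins of 164 (21.3%, 15.3 to 28.4), a higher share than on any of the 19, though its interval overlapped that of chromosome 1. It also had fewer peaks, 3.65 per bin against 4.86 on chromosome 1 and 12.6 on chromosome 11.

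**Figure D2:**
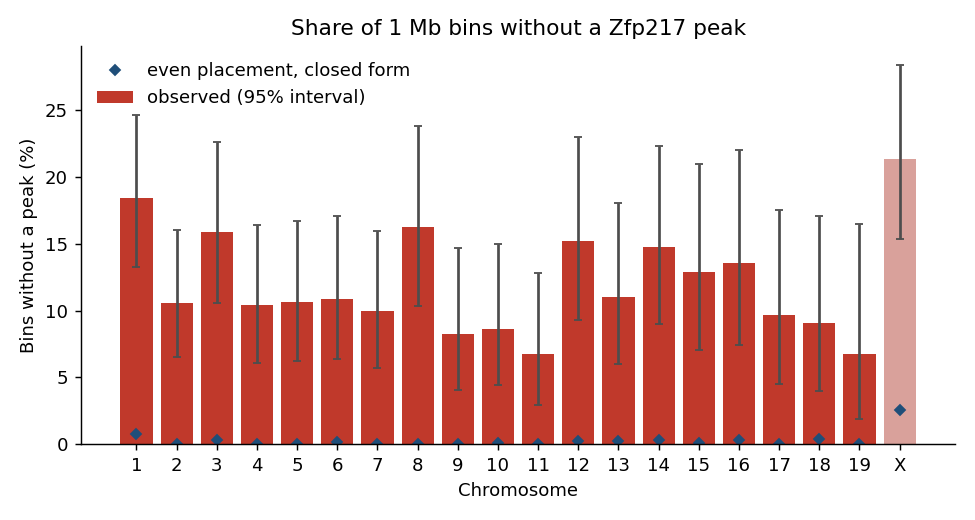
Percentage of 1 Mb bins without a peak (vertical axis) on each chromosome (horizontal axis), with exact 95% intervals and, as diamonds, the percentage expected from even placement; chromosome X is paler because the rule leaves it out. Observed shares run from 6.72% on chromosome 11 to 18.5% on chromosome 1 and 21.3% on X, above the diamond on every chromosome.

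Some chromosomes with similar peak numbers had different shares of empty bins, with intervals that overlapped. The pairs given here were picked with their values known. Chromosome 8 had 7.84 peaks per bin and 16.3% empty bins (10.4 to 23.8), whereas chromosome 5 had 7.99 peaks per bin and 10.7% (6.22 to 16.7). Chromosome 18 had 5.49 peaks per bin and 9.09% (4.01 to 17.1), against 5.62 and 15.9% (10.6 to 22.6) on chromosome 3. Other chromosomes were alike in both, such as chromosome 12 with 6.08 peaks per bin and 15.3%, and chromosome 14 with 5.82 and 14.8%. Over the 19 chromosomes the share of empty bins had a Pearson's r of -0.69 (Spearman's rho -0.67) with peaks per bin, which come from the same peaks. With protein-coding genes per bin, counted per chromosome in a RefSeq table of another build (GRCm38.p6), r was -0.66 and rho -0.66. Both are descriptions over chromosomes that differ in many respects at once.

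Several gene families, some of which form long arrays, were counted per chromosome as well, since none of their positions could be set against mm9. Olfactory receptor (Olfr) genes, which serve smell, are the largest such family with 1104 members on chromosomes 1 to 19. Chromosomes 2 and 7 carry 287 and 239 of them, and had 10.6% and 10.0% empty bins, both under the 11.9% of all bins. The longest desert, of 6 Mb, was also on chromosome 7, and the longest on chromosome 2 was of 3 Mb. Shares of whole chromosomes cannot show whether these genes lie in deserts, which was not tested. The share of empty bins had an r of -0.51 (rho -0.56) with Olfr genes per bin, the sign that genes of all kinds gave. For vomeronasal receptor (Vmn1r and Vmn2r) genes, which detect pheromones and number 352, r was -0.19 and rho -0.05. For Zfp genes, which encode zinc finger proteins and number 388, r was -0.31 and rho -0.38. For cadherin (Cdh) genes, which encode cell adhesion proteins and number 23, r was 0.40 and rho 0.31, and 8 of them lie on chromosome 8. Protocadherin (Pcdh) genes, which serve contacts between neurons, gave an r of -0.17 and a rho of 0.02, of opposite sign, with 67 members, of which 59 lie on chromosome 18. Hox genes, which pattern the body axis, gave an r of -0.20 and a rho of -0.14 with 39. Which genes lie inside any single desert was not analysed here.

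Along the chromosomes, empty bins were fewest towards the far end. With each chromosome cut into 5 equal parts, 60 of 492 bins (12.2%) were empty in the first part, which begins next to the centromere in the mouse. The next 3 parts had 58 of 485 (11.96%), 71 of 484 (14.7%) and 61 of 485 (12.6%). The fifth had 39 of 476 (8.19%) and also the most peaks, 9.50 per bin against 6.07 to 7.39 in the others. Of the first 5 bins of each chromosome 9 of 95 were empty, and of the last 5 bins 7 of 95. By the rule the last bin of each of the 19 chromosomes holds a peak and could not be empty. This lowers the shares of the fifth part and of the last 5 bins, so the 2 ends are not compared on equal terms.

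Most deserts were short. A single bin made up 173 of the 220, 31 had 2 bins, 12 had 3, 3 had 4 and 1 had 6. The 47 deserts of more than 1 bin held 116 of the 289 empty bins (40.1%). Empty bins touched each other in 69 of the 2403 neighbouring pairs. If the bins of each chromosome stood in any order with equal chance, 34.9 such pairs and 254 deserts would be expected, so touching pairs were 1.97 times as many. The longest desert of a chromosome had 1 bin on 2 chromosomes (17 and 18), 2 bins on 8, 3 on 5, 4 on 3 and 6 on 1.

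The fixed grid sets which peak-free stretches count. Of 18022 gaps between neighbouring peaks, 461 (2.56%) were at least 1 Mb long and covered 757 Mb, or 31.4% of the 2412 Mb considered. Only 220 of these (47.7%) held a whole bin, and they are the deserts. The other 241 straddled a bin edge, and the longest of them was 1.78 Mb. The shortest gap that held a bin was 1.03 Mb. Near the limit, 88 gaps were between 0.9 and 1 Mb and 81 between 1 and 1.1 Mb, of which 4 held a whole bin. At least 2 Mb were reached by 94 gaps, 3 Mb by 25 and 4 Mb by 11. The distance between the border peaks of a desert had a median of 1.85 Mb and summed to 459 Mb, 19.02% of the length considered, so a desert is longer than its bins.

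**Figure D3:**
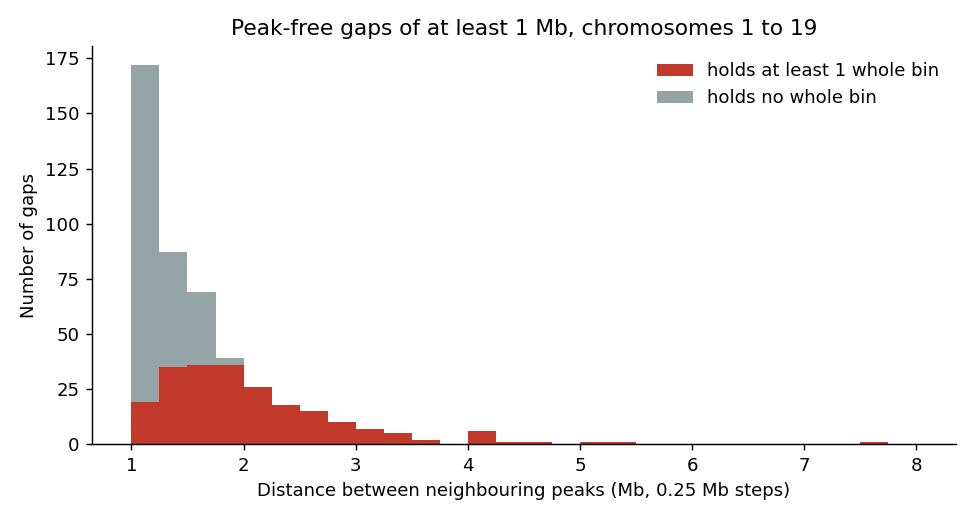
Number of peak-free gaps of at least 1 Mb on chromosomes 1 to 19 (vertical axis) by length in Mb (horizontal axis), with those that hold a whole bin of the grid in red and those that do not in grey. A gap of at least 2 Mb always holds a whole bin of this grid, so the 94 of that length are all red. The grey gaps end at 1.78 Mb, and 1 gap of 7.69 Mb stands apart.

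The longest desert was on chromosome 7, from 40000001 to 46000000. Its border peaks, at 39056201 to 39056614 and at 46742570 to 46742933, lay 7.69 Mb apart. At the mean of chromosome 7 its 6 bins would hold 57.5 peaks. The border peaks had widths of 414 and 364 bp, and their next neighbours away from the desert were 42.9 and 29.9 kb off. The 5 Mb before the desert held 43 peaks and the 5 Mb after it 28. Both flanks held a further desert. The bin after the longest desert had 3 peaks and was followed by an empty bin, from 47000001 to 48000000, in a gap of 1.84 Mb. Before the longest desert, the bin from 37000001 to 38000000 was empty, in a gap of 2.04 Mb.

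Chromosomes 15, 14 and 3 held the deserts of 4 Mb. The desert on chromosome 15, from 46000001 to 50000000, lay in a gap of 5.30 Mb between peaks of 242 bp (45421395 to 45421636) and 410 bp (50721617 to 50722026). Its surroundings were sparse on both sides, with 680 and 975 kb to the next peaks and 13 and 14 peaks in the 5 Mb before and after. The desert on chromosome 14, from 95000001 to 99000000, lay in a gap of 5.16 Mb between peaks of 240 bp (94289785 to 94290024) and 692 bp (99445140 to 99445831). Its sides were unequal, with 3 peaks in the 5 Mb before and 18 in the 5 Mb after. The desert on chromosome 3, from 23000001 to 27000000, lay in a gap of 4.49 Mb and ended at a peak of 460 bp (27052569 to 27053028) whose next neighbour was 946 bp away.

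The other 6 of the 10 longest deserts had 3 bins each. On chromosome 5 the desert from 10000001 to 13000000 lay in a gap of 4.71 Mb, between peaks of 627 and 189 bp. The latter, at 13870837 to 13871025, had its next neighbour 158 bp away. On chromosome 2 the desert from 87000001 to 90000000 (gap 4.21 Mb) ended beside a bin with 11 peaks, and 52 peaks lay in the 5 Mb after it. A second desert on chromosome 2, from 95000001 to 98000000 (gap 4.06 Mb), began right after those same 5 Mb, so the 52 peaks lie between these deserts. It ended at the widest border peak of the 10, of 782 bp at 98502374 to 98503155. Chromosome 14 held another from 81000001 to 84000000 (gap 4.09 Mb), which began at a peak of 176 bp. Chromosome 1 held deserts from 26000001 to 29000000 (gap 4.07 Mb) and from 115000001 to 118000000 (gap 4.02 Mb). The first of these ended at the narrowest border peak of the 10, of 157 bp at 29793996 to 29794152. Together the 10 longest deserts held 36 empty bins (12.5% of all) on 7 chromosomes.

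The longest gap of each chromosome was set against even placement too. With the same number of peaks spread evenly at random over the same length, the longest gap expected from a formula runs from 0.625 Mb on chromosome 11 to 1.52 Mb on chromosome 1. The observed longest gaps exceeded this on all 19 chromosomes, by 2.03 times on chromosome 18 up to 9.43 times on chromosome 7. Chromosome 17 had the shortest of them, 1.94 Mb.

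Some deserts were parts of wider sparse stretches. In 27 places a single bin with peaks stood between neighbouring deserts. Of these bins 13 held 1 peak, 7 held 2, and the fullest held 7. Joining bins with at most 1 peak gave 346 runs, of which 13 were at least 5 Mb long. The longest, named after its values were seen, was on chromosome 14 from 88000001 to 99000000. Its 11 bins held 5 peaks where the mean of the chromosome would give 64.0, and included 3 deserts, the last of them the 4 Mb desert above. The widths of the 5 peaks were 157, 558, 157, 174 and 240 bp, so 4 of the 5 were narrower than the median of the peaks of chromosomes 1 to 19, 323 bp.

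Bins close to deserts held fewer peaks than bins farther away. The 413 bins with peaks that touched a desert had a median of 3 peaks (middle 50% from 2 to 6), against 6 in the 1720 other bins with peaks. At 2, 3, 4 and 5 bins from the nearest empty bin the median was 4, 5, 6 and 7 peaks, and at 6 or more bins it was 7. A single peak was found in 24.7% of the touching bins and in 10.3% of the bins 6 or more away. At least 10 peaks were found in 50 of the 413 touching bins (12.1%), against 25.4% of all bins and 37.8% of the bins 6 or more away. These classes pool chromosomes that differ in peaks per bin and in share of empty bins. The rise with distance was not separated from those differences.

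**Figure D4:**
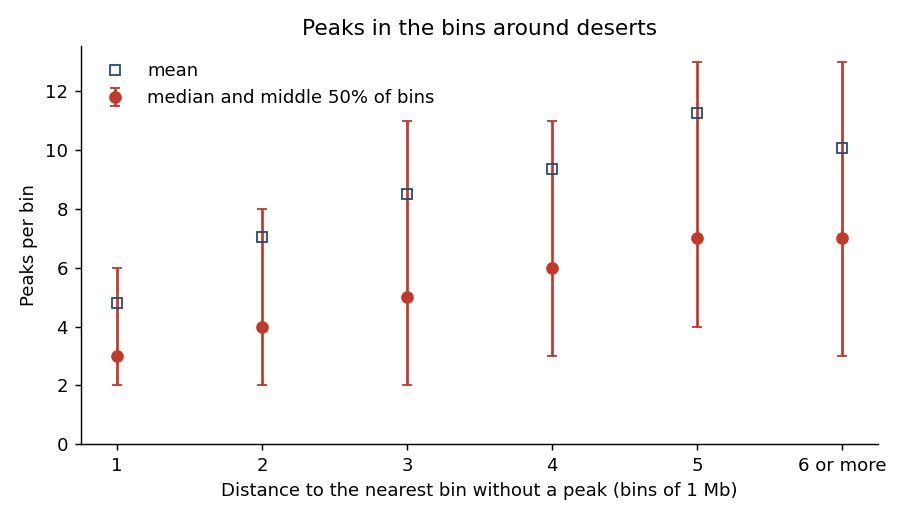
Peaks per 1 Mb bin (vertical axis) by the distance in bins to the nearest bin without a peak (horizontal axis), for bins that hold a peak; points are medians, bars the middle 50% of bins, and squares the means. Medians climb from 3 beside a desert to 7 at 5 bins and stay at 7 beyond, with all chromosomes of the rule pooled.

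A few deserts had a sharp edge. Of the 220, 43 touched at least 1 bin with 10 or more peaks and 8 touched one with 20 or more, a level reached by 9.21% of all bins and by 9 of the 413 touching bins (2.18%). The examples that follow were picked with their values known. The fullest touching bin was on chromosome 6 from 47000001 to 48000000, with 48 peaks. The bin before it, from 46000001, was empty, and the one before that held 1 peak. On chromosome 7 the empty bin from 18000001 to 19000000 had 26 peaks in the bin before it and 43 in the bin after, the only desert with at least 20 on both sides. Its border peaks were narrow, with 157 bp at 17718616 to 17718772 and 202 bp at 19038723 to 19038924, and lay 1.32 Mb apart.

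The deserts were bordered by 427 peaks, of which 13 bordered a desert on both sides. Border peaks stood more alone than other peaks on their far side as well. The distance to the next peak away from the desert had a median of 173 kb (95% interval of the median from order statistics 138 to 204, n = 426, since 1 peak was the last of its chromosome). Over all gaps between neighbouring peaks the median was 33.4 kb (32.3 to 34.5). A next peak within 10 kb was found for 71 of the border peaks (16.7%), whereas 29.5% of all gaps were that short. Over 100 kb lay beyond 260 (61.0%), against 26.8% of all gaps. For 40 border peaks the outward gap was itself at least 1 Mb. Among them are the 13 that border a desert on both sides, whose outward gap is by construction that of the neighbouring desert. Those 13 also count among the 260. Taken by desert, 34 of the 220 had a further peak within 100 kb of both borders, 98 of 1 border and 88 of neither.

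Width was not used to find the deserts, although a peak list with other limits would change both. Border peaks had a median width of 270 bp (95% interval of the median 250 to 299), against 323 bp (321 to 327) for the 17614 other peaks of chromosomes 1 to 19. Their middle 50% lay between 191 and 416.5 bp, and between 230 and 471 bp for the others. The smallest width in the list, 157 bp, was found in 35 border peaks (8.20%, 5.78 to 11.2), against 3.51% of all peaks. The widest 25% of peaks, those of at least 470 bp, made up 83 of the border peaks (19.4%, 15.8 to 23.5), against 25.1% of all. Widths over 1 kb were found in 2 border peaks (0.468%), the widest of 1132 bp, and in 194 of all peaks (1.08%). These intervals take peaks as independent and cover counting error only. No test was made, as peaks of 1 library are not replicates.

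**Figure D5:**
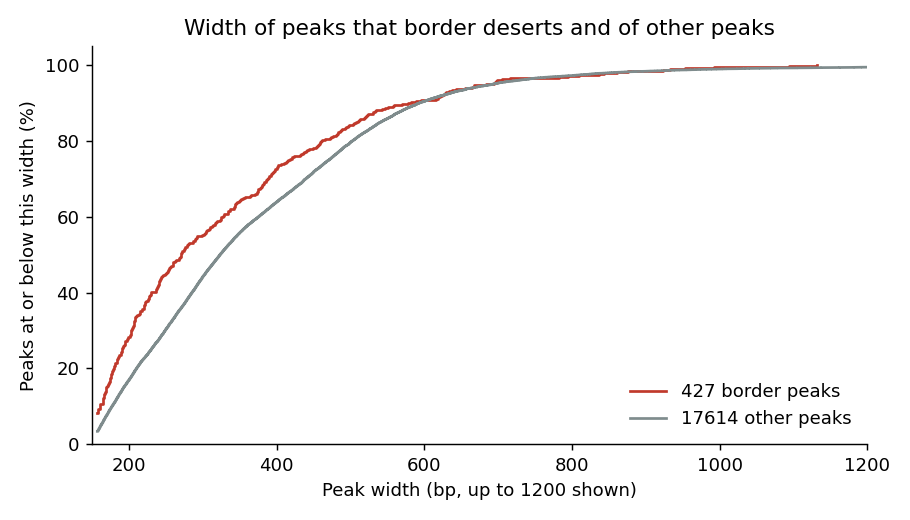
Percentage of peaks at or below each width (vertical axis) by width in bp (horizontal axis), for border peaks in red and other peaks of chromosomes 1 to 19 in grey. The red curve lies to the left at small widths, with medians of 270 and 323 bp, and both curves meet among the widest peaks.

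The difference in width varied with the distance to the nearest peak, and differences between the distance classes were not tested. Where the nearest peak was at most 10 kb away, the medians were 308 bp (241 to 349, 71 border peaks) and 305 bp (301 to 308, 8686 others). At 10 to 100 kb they were 389 bp (304 to 421, 95 border peaks) and 368 bp (361 to 377). At 100 kb to 1 Mb border peaks had 247.5 bp (220 to 274, 220 peaks) and the others 294 bp (285 to 303, 1878 peaks). The 41 border peaks at 1 Mb or more had 227 bp (188 to 268), and the 17 others at that distance 219 bp (191 to 297). Among the 4 classes the intervals stood apart at 100 kb to 1 Mb alone.

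Width also moved with the number of peaks in the bin. Peaks alone in their bin had a median of 241 bp (225 to 263, 300 peaks), and 33 of them (11.0%) were at the smallest width. In bins with 2 to 4 peaks the median was 281 bp, with 5 to 9 peaks 324 bp, with 10 to 19 peaks 329.5 bp and with 20 or more 331 bp. Within single-peak bins the 102 border peaks had 217.5 bp (202 to 242) and the 198 others 261 bp (231 to 282). In bins with 2 to 4 peaks border peaks had 271 bp (238 to 316) and others 282 bp (273 to 290), and in bins with 5 to 9 peaks 366 bp (292 to 406) and 324 bp (319 to 331). In bins with 10 to 19 peaks border peaks had 367 bp (309 to 464, 41 peaks) and others 329 bp (323 to 336). In bins with 20 or more the 9 border peaks had 189 bp (166 to 373) and others 331 bp (327 to 336). Within each of these 5 classes the intervals overlapped, and the sign of the difference changed between classes. All peaks in touching bins together had a median of 315 bp (305 to 324), close to 324 bp (320 to 329) at 6 or more bins.

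The border peaks of the longest deserts had median widths nearer to that of the whole list. The 32 border peaks of the 16 deserts of at least 3 bins had a median width of 302 bp (215 to 414), an interval that holds both medians above, and the 20 of the 10 longest had 350 bp. Of the 32, 3 (9.38%, 1.98 to 25.02) were at the smallest width, near the 8.20% of all border peaks. The widest 25% of peaks made up 6 (18.75%, 7.21 to 36.4), near their 19.4%. Both intervals also hold the shares of all peaks, 3.51% and 25.1%. With bins of 2 Mb, which find the longest stretches, the median was 326.5 bp, on the other side of the 323 bp of the peaks of chromosomes 1 to 19. Over all 220 deserts, long and short, both border peaks were narrower than 323 bp in 81, a single one was in 101, and neither was in 38. As 323 bp is the median of the peaks of chromosomes 1 to 19, about 50% of those peaks lie on each side of it.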

How the data were processed

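Zfp217 chromatin immunoprecipitation was sequenced in 1 library of CCE cells, beside 1 input library. Start and end of each peak are as the authors deposited them, in bp of mm9, with starts counted from 0 there and from 1 here. CASAVA 1.4, Bowtie2 and MACS2 are named, with no roles, in the submitters' processing notes, as is the build mm9. For the threshold, the duplicates and the use of the input, nothing is given in the sources used here.

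Bins were counted as empty where no base of a peak lay in them. Expectations under even placement came from closed formulas, per chromosome. The finder was tested on simulated data. Intervals of shares are Clopper-Pearson and of medians from order statistics, both 95%. The 10 longest deserts were named by bins, ties by the distance between border peaks. The members and lists were chosen with earlier results of these data known. The first 3 bins of each chromosome were left out; over 20 chromosomes, X included, 59 of these 60 held no peak. Neither sequence nor gene positions of mm9 were used, so unsequenced stretches, genes and sequence in deserts were not examined. Tables were made with pandas 2.3.3 and numpy 2.4.6, intervals with scipy 1.17.1 and figures with matplotlib 3.10.9, under Python 3.11.15.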

Additional observations from a re-analysis of the deposited data

Results flagged for a closer look

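Outside chromosomes 1 to 19 and X the list held 98 peaks, on chromosomes Y and M and on unplaced contigs, which no bin here covers.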

How the results depend on the processing

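Of 58 alternative values, 32 stayed within 1.5 times the value given (counts, lengths, ratios) or within its 95% interval (shares, medians), and 26 moved. The share of empty bins was 27.7% with bins of 500 kb, 3.04% with 2 Mb, 28.9% and 43.0% with the wider 50% and 25% of peaks, and 13.4% without peaks of the smallest width. Deserts numbered 751, 34, 389 and 450 in the first 4 of these, and 461 as gaps of at least 1 Mb without a grid. The longest desert reached 12 Mb with the wider 25%. The ratio to even placement was 8.23, 3994, 8.57 and 2.62 in those 4, 31.0 with peaks within 1000 bp merged and 38.5 with X added. Median border width was 326.5 bp with bins of 2 Mb, 452.5 and 559 bp with the wider 50% and 25% (all peaks in these, 468 and 562 bp), and 302 bp after merging (all, 391 bp). The median outward gap was 111 kb with bins of 500 kb, 221 kb with 2 Mb, 232 kb with the wider 25%, 212 kb after merging and 127 kb without a grid. Fewer peaks or smaller bins leave a larger share of bins empty by construction, and larger bins a smaller one. Merging left this share at 11.9%, so the ratio moved there through its expectation alone. Chromosome X adds 4.23 expected empty bins to the 4.17 of the 19 chromosomes. For the other moves the cause was not tested. Shifting the bins by 500 kb or leaving out each chromosome's last bin moved none of the 6 values. The settings without a grid and without the smallest width were added after the data were examined. Leaving out unsequenced bins was not run, as it needs a genome of mm9. No paired analysis was possible because there is 1 precipitated library. Depth is unknown, so too few reads and the absence of binding cannot be told apart in an empty bin.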
